A study of Mus musculus with 30 samples.

Results

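The glucocorticoid axis was followed in the spinal cord of mice recovering from a cortical stroke, through the 2 corticosteroid receptors, Nr3c1 and Nr3c2, and 6 genes known to respond to the hormone, Fkbp5, Tsc22d3, Sgk1, Errfi1, Pdk4 and Hif3a. The members were chosen by gene symbol, and each of the 8 has 1 row among the 16995 genes measured. The study asked which molecules change in the part of the cord that lost its cortical input while the animals regain function. Total RNA of the denervated side of the cervical cord, cut from its intermediate laminae at C5/C6, was sequenced after depletion of ribosomal RNA.

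All animals were adult female C57BL/6 mice. The stroke groups had a photothrombotic stroke, in which light closes vessels filled with a photosensitive dye, of the right sensorimotor cortex and were studied 4, 7, 14, 28 or 42 days after injury (dpi). The reference group, named Ctrl in the labels, was sham-operated. Values were used for 29 animals, 4 at 4 dpi and 5 in each other group. Each sample is a piece of mixed tissue, so fewer cells of a type and less RNA per cell cannot be told apart. Defining markers of neurons, astrocytes, oligodendrocytes and microglia were above 0 in every group, and none of 3 skeletal muscle markers was among the genes measured.

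Glucocorticoids, in mice mainly corticosterone, are steroid hormones of the adrenal cortex whose blood level follows the time of day and rises with stress. The unbound glucocorticoid receptor waits in the cytoplasm in a complex with heat shock proteins and their helpers. After binding hormone it moves to the nucleus and switches genes on by sitting as a pair on a palindromic sequence, the glucocorticoid response element. In nervous tissue, glial and endothelial cells respond strongly, and several of the induced genes feed back on the receptor itself or on inflammatory, growth factor and metabolic signalling.

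The promoters of the responsive genes were read for this element because it is the sequence through which the receptor acts. RefSeq start sites (assembly GRCm38.p6) gave 15 windows of 250 bases upstream of a start, belonging to 7 of the 8 members. The full palindrome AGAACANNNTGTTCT, which reads the same on both strands, was present in 1 of these windows, at Sgk1. Among all 32851 mouse promoter windows of the same length it was found in 3 (0.00913%), those of Sgk1, Acnat2 and Gm35041. Either arm alone (TGTTCT or its reverse complement AGAACA, counted also inside the full palindrome) was found in 4 of the 15 windows, against 16.1% of all windows. These 4 belong to Sgk1 and Tsc22d3 only, which have several windows each, and 1 of them is the window with the palindrome. A looser form, GNACANNNTGTNC, was found in 0.387% of all windows. The 3 sequences below are the 1 Sgk1 window with the full palindrome, a Tsc22d3 promoter with 1 arm and the Pdk4 promoter with no match. Each reads 5′ to 3′ on the strand of the gene and ends at the base before the start, with matches in capitals.
Sgk1, chr10:21993640-21993889, plus strand: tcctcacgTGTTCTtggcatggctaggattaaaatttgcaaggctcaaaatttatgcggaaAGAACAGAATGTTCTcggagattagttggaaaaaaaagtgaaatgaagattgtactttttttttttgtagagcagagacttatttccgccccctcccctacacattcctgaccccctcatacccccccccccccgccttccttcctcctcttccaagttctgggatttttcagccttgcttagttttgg
Tsc22d3, chrX:140600523-140600772, minus strand: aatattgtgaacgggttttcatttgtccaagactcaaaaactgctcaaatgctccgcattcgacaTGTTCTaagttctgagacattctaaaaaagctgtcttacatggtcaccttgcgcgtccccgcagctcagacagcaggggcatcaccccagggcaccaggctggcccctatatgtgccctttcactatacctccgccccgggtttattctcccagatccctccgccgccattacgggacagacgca
Pdk4, chr6:5496279-5496528, minus strand: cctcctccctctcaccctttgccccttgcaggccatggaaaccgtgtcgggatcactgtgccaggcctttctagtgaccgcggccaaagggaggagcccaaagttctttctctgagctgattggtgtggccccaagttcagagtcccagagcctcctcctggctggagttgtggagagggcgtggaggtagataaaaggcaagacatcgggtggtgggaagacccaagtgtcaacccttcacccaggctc
The Sgk1 palindrome lies from 189 to 175 bases upstream of that start. These matches describe letters in a window, and no binding was measured here.

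The course after stroke was uneven among the members. At 28 dpi, Sgk1, Tsc22d3 and Errfi1 were lower than in sham animals, while both receptors, Fkbp5 and Hif3a were called in none of the comparisons. Pdk4 was the 1 member that was higher at 42 dpi than at 28 dpi without having been lower at 28 dpi. Each time point was compared with sham, and each with the one before it, by limma on log2(value + 0.5) with Benjamini-Hochberg adjustment over all genes. A gene was called at an adjusted p under 0.05, and a called gene with a fold change above 1.5 in either direction was counted as a significantly differentially expressed gene (SDEG). The study words its own SDEG limit as a log fold change of 1.5 in its methods and as a log2 value of 1.5 in its results, so the 1.5-fold limit used here is laxer than its wording. At a log2 limit of 1.5, 0 members passed in any comparison. Values are normalized CPM, counts scaled by the authors' normalization, as the authors deposited them.

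**Figure D1:**
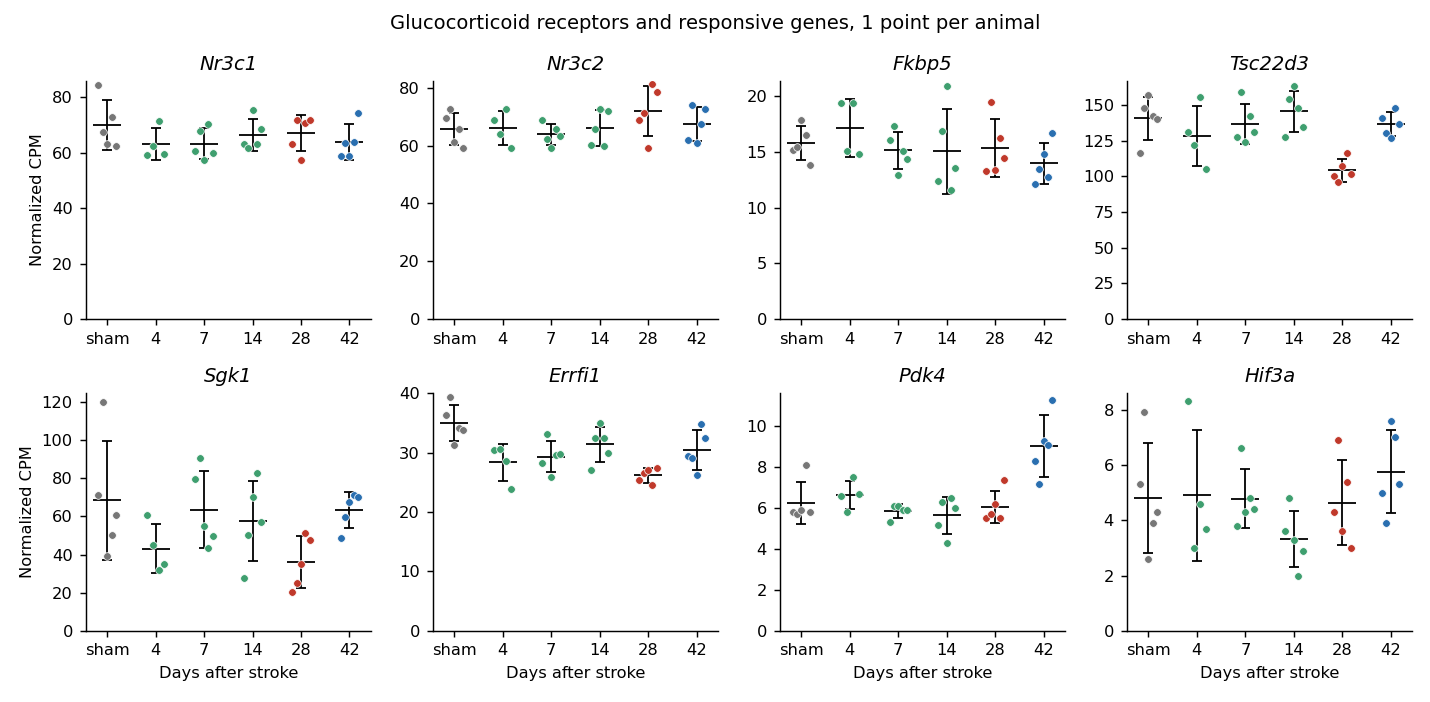
Normalized CPM (vertical axes, each from 0) of the 8 genes by days after stroke. Points are animals, the horizontal mark is the group mean and the bar is 1 SD. Tsc22d3 and Errfi1 at 28 dpi lie below every sham animal, and every Pdk4 value at 42 dpi lies above 4 of the 5 sham animals.

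Nr3c1 (chr18:39410545-39491301, minus strand, mm10) encodes the glucocorticoid receptor. Its values ran from 57.4 to 84.5 normalized CPM over all animals, with 70.1 ± 9.03 (SD, n = 5) in sham animals and 67.0 ± 6.50 (SD, n = 5) at 28 dpi. The highest value was that of sham animal A11-1, and every stroke group overlapped the sham group. The log2 fold changes against sham lay between -0.14 and -0.06, and none was called. At 28 dpi the 95% interval of the log2 fold change ran from -0.23 to 0.11.

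Nr3c2 (chr8:76899442-77245012, plus strand, mm10) encodes the mineralocorticoid receptor, which binds corticosterone with higher affinity than the glucocorticoid receptor does. It stood at 65.7 ± 5.65 normalized CPM (SD, n = 5) in sham animals and 71.8 ± 8.68 (SD, n = 5) at 28 dpi. 2 of the 5 animals at 28 dpi were above the sham range, at 81.2 and 78.5. The difference at 28 dpi was 0.12 on the log2 scale (95% interval -0.04 to 0.29) and was not called. After every animal's values were scaled to the same sum, the median log2 fold change of all genes at 28 dpi moved to -0.73 and that of Nr3c2 to -0.66, which is 0.06 above that median.

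Fkbp5 (chr17:28399095-28517524, minus strand, mm10) encodes a co-chaperone that lowers the receptor's affinity for hormone and is itself induced by it, a short feedback loop. It ranged from 11.6 to 20.9 normalized CPM, both at 14 dpi. Group means ran from 13.98 ± 1.82 (SD, n = 5) at 42 dpi to 17.2 ± 2.57 (SD, n = 4) at 4 dpi, against 15.8 ± 1.53 (SD, n = 5) in sham animals. None of its comparisons was called, and the log2 fold change at 28 dpi was -0.04 with a 95% interval from -0.31 to 0.22.

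Tsc22d3 (chrX:140539528-140600659, minus strand, mm10) encodes the glucocorticoid-induced leucine zipper, a mediator of the hormone's anti-inflammatory action. Sham animals had 116.7, 147.9, 156.8, 142.5 and 140.2 normalized CPM. At 4 dpi the values were 131.5, 121.9, 155.4 and 105.2, and at 7 dpi 127.5, 159.0, 124.4, 142.3 and 131.2. At 14 dpi they were 127.6, 154.4, 163.5, 147.9 and 134.5. These 4 groups overlapped throughout. At 28 dpi the values were 100.3, 95.9, 107.0, 116.5 and 101.5, all below the lowest sham animal, and at 42 dpi 141.0, 130.5, 127.1, 148.3 and 136.8, all above the highest animal at 28 dpi.

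Tsc22d3 thus fell at 28 dpi by 0.43 on the log2 scale (SE 0.0888, limma adjusted p = 0.00213), a mean of 104 ± 7.91 (SD, n = 5) against 141 ± 14.9 (SD, n = 5) in sham animals. This is under 1.5-fold. From 14 to 28 dpi it fell by 0.48 (SE 0.0888, limma adjusted p = 0.000135), and from 28 to 42 dpi it rose by 0.39 (SE 0.0888, limma adjusted p = 0.0269). The latter call ended without any of 6 animals (A3-3, A4-3 or A4-4 at 28 dpi, A1-1, A1-2 or A1-4 at 42 dpi), with a limma adjusted p of at most 0.105. At 42 dpi the difference from sham was -0.04 (95% interval -0.22 to 0.14).

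Sgk1 (chr10:21882184-21999903, plus strand, mm10) encodes a kinase that raises the activity of ion channels and transporters, in part by restraining the ubiquitin ligase encoded by Nedd4l. Sham animals had 71.4, 119.9, 39.4, 50.3 and 60.7 normalized CPM. The values were 60.5, 45.1, 31.9 and 35.0 at 4 dpi, and 79.8, 90.4, 54.8, 43.5 and 49.5 at 7 dpi. At 14 dpi they were 27.9, 50.0, 70.1, 82.8 and 56.8. The sham animals alone spread from 39.4 to 119.9, and every one of these groups overlapped them. At 28 dpi the values were 20.4, 25.0, 34.8, 51.5 and 47.7, with 3 of 5 below the sham range, and at 42 dpi 48.8, 59.5, 67.7, 71.4 and 70.0, within it.

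The mean of Sgk1 at 28 dpi was 35.9 ± 13.6 normalized CPM (SD, n = 5), which is 52.5% of the sham mean of 68.3 ± 31.2 (SD, n = 5). The log2 fold change was -0.90 (SE 0.277, limma adjusted p = 0.0191), and Sgk1 was the 1 member that passed 1.5-fold there, as 4.64% of all genes did, and it did not reach a log2 value of 1.5 in size. The call did not hold without sham animal A11-4 (log2 fold change -0.67, limma adjusted p = 0.0702), without A3-1 at 28 dpi (-0.72, adjusted p = 0.0513) or without A3-3 at 28 dpi (-0.80, adjusted p = 0.0657). From 14 to 28 dpi Sgk1 fell by 0.67 (SE 0.277, limma adjusted p = 0.0498), and this call ended when any of 20 of the 29 animals was left out, with adjusted p between 0.00821 and 0.155 over all 29 omissions. From 28 to 42 dpi the difference was 0.89 with a 95% interval from 0.32 to 1.45 and did not pass (limma adjusted p = 0.0728).

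Errfi1 (chr4:150853919-150868892, plus strand, mm10) encodes a feedback inhibitor of the epidermal growth factor receptor family. Sham animals had 36.4, 39.3, 31.2, 34.1 and 33.8 normalized CPM. The values were 30.4, 30.6, 28.5 and 23.8 at 4 dpi, and 28.2, 33.1, 25.9, 29.6 and 29.7 at 7 dpi. Every animal at 4 dpi, and all but 1 of those at 7 dpi, had a lower value than the lowest sham animal. At 14 dpi the values were 27.1, 32.5, 34.9, 32.4 and 30.0, at 28 dpi 25.3, 26.6, 27.1, 24.5 and 27.4, and at 42 dpi 29.5, 29.0, 26.2, 34.8 and 32.5. No animal at 28 dpi reached the sham range, and 3 of 5 at 42 dpi were below it.

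At 28 dpi Errfi1 fell by 0.41 on the log2 scale (SE 0.0825, limma adjusted p = 0.00187), from 34.96 ± 3.05 (SD, n = 5) to 26.2 ± 1.24 (SD, n = 5). At 4 dpi the log2 fold change was -0.30 (SE 0.0875, unadjusted p = 0.00169, limma adjusted p = 0.287). At 4 dpi 0.612% of all genes had every stroke animal below every sham animal, and Errfi1 was the 1 member among them. Summed microglial markers also separated at 4 dpi, from 120.1 to 183.3 normalized CPM against 95.4 to 107.8 in sham animals, as did 3 pituitary markers, from 2.2 to 17.3 against 0.2 to 0.7, and their part in the Errfi1 values was not tested. The 7 dpi value was -0.25 (unadjusted p = 0.0048, limma adjusted p = 0.791) and the 42 dpi value -0.20 (unadjusted p = 0.0209, limma adjusted p = 0.243). Its fall from 14 to 28 dpi was 0.25 (SE 0.0825, limma adjusted p = 0.0143), a call that ended without A5-4 at 14 dpi (adjusted p = 0.0515). The 5 comparisons with sham share the same control animals. An antisense gene, 1700045H11Rik, has a span that overlaps Errfi1 on the other strand, as do genes opposite Fkbp5, Nr3c2 and Hif3a. The library kit does not mark strand, so reads from any stretch they share cannot be told apart, and overlap of exons was not tested.

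Pdk4 (chr6:5483351-5496309, minus strand, mm10) encodes a kinase that inhibits the pyruvate dehydrogenase complex and so spares glucose. It is a low gene in this tissue: sham animals had 5.8, 5.7, 5.9, 8.1 and 5.8 normalized CPM. The values were 6.6, 5.8, 7.5 and 6.7 at 4 dpi, and 5.3, 6.1, 6.1, 5.9 and 5.9 at 7 dpi. At 14 dpi they were 5.2, 6.3, 4.3, 6.5 and 6.0, and at 28 dpi 5.5, 5.7, 6.2, 5.5 and 7.4. Every group up to 28 dpi overlapped the sham animals. At 42 dpi the values were 8.3, 7.2, 9.3, 9.1 and 11.3, with 4 of 5 above the highest sham animal.

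From 28 to 42 dpi Pdk4 rose by 0.53 on the log2 scale (SE 0.119, limma adjusted p = 0.0269), from 6.06 ± 0.802 (SD, n = 5) to 9.04 ± 1.51 (SD, n = 5). The call ended without A3-3 or A4-3 at 28 dpi or without A1-1, A1-2, A1-4 or A3-4 at 42 dpi, with a limma adjusted p of at most 0.1. Against sham, with 6.26 ± 1.03 (SD, n = 5), the 42 dpi log2 fold change was 0.49 (95% interval 0.25 to 0.74, unadjusted p = 0.000237) and missed the adjusted threshold (limma adjusted p = 0.0821). With the label number as a random block it passed (limma adjusted p = 0.0491), the 1 of 11 other settings in which it did. It was called in 0 of the 29 fits with 1 animal left out. With all animals scaled to the same sum its log2 fold change was -0.02 (limma adjusted p = 0.939), beside a median of -0.52 for all genes. In the main fit Pdk4 ranked 47th of all genes by p at 42 dpi against sham, where 4 genes were called.

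Hif3a (chr7:17031507-17062427, minus strand, mm10) encodes an alpha subunit of the hypoxia-inducible factors, some forms of which restrain the other subunits. Its values lay between 2.0 and 8.3 normalized CPM. The means were 4.80 ± 1.98 (SD, n = 5) in sham animals, 3.32 ± 1.02 (SD, n = 5) at 14 dpi and 5.76 ± 1.51 (SD, n = 5) at 42 dpi. None of its comparisons was called, and its intervals were wide, from -0.94 to 0.07 at 14 dpi and from -0.22 to 0.79 at 42 dpi.

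**Figure D2:**
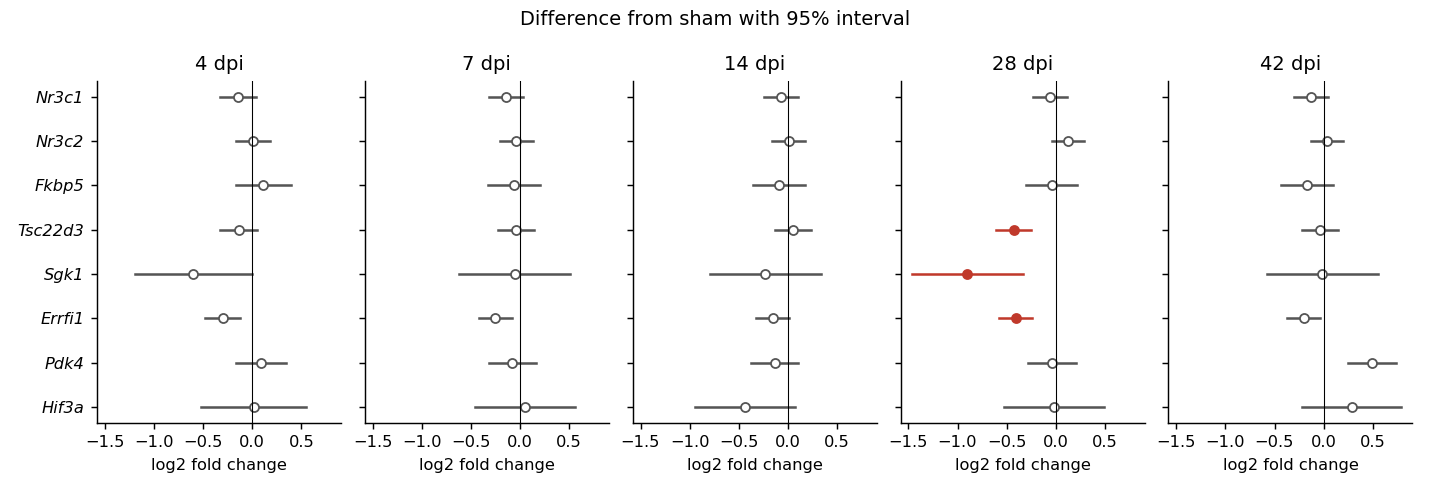
Log2 fold change against sham (horizontal axes) of each gene, 1 panel per time point. Circles are estimates and lines are 95% intervals, with called genes (limma adjusted p under 0.05) in filled red and the others open. The 3 called values are those of Tsc22d3, Sgk1 and Errfi1 at 28 dpi, all below 0.

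The counts of called members are given beside the share of all genes called. At 28 dpi 3 of 8 members were called lower and 0 higher, where 13% of all genes were called lower and 24.9% were called in either direction. Tsc22d3 and Errfi1 did not overlap the sham group, which held in this direction for 3.75% of all genes. Limma called 0 members at 4, 7, 14 and 42 dpi, where it called 0.106%, 0.0294%, 0.00588% and 0.0235% of all genes. At an unadjusted p under 0.05 the counts were 1, 1, 0 and 2 members, beside 5.14%, 5.84%, 11.6% and 14.8% of all genes. Whether members were called more often than other genes was not tested.

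Between successive time points, limma called 0 members from 4 to 7 dpi and 0 from 7 to 14 dpi, and it called 0% of all genes in both steps. At an unadjusted p under 0.05, 0 members passed in either, beside 2.91% and 5.94% of all genes. In the step from 14 to 28 dpi 3 members fell, Tsc22d3, Errfi1 and Sgk1, where 21.9% of all genes were called lower and 43% in either direction. Sgk1 passed 1.5-fold in this step, as did 11.8% of all genes, and Tsc22d3 did not overlap, as held in this direction for 11.8% too. From 28 to 42 dpi 2 members rose, Tsc22d3 and Pdk4, where 1.45% of all genes were called higher and 1.94% in either direction. The 42 dpi animals did not overlap the 28 dpi animals for Tsc22d3, a separation that 1.64% of all genes showed in this direction. A test for any difference among the 6 groups called 4 members, Tsc22d3, Pdk4, Errfi1 and Sgk1 (limma adjusted p = 0.0017, 0.00188, 0.00688 and 0.0433), against 31.6% of all genes.

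Residual ribosomal RNA moved with the time course. The median of the ribosomal gene Rn18s-rs5 was 34962 normalized CPM in sham animals and 323193 at 28 dpi, where the animals ranged from 44755 to 779160. The 28 dpi calls were lost with the log2 value of Rn18s-rs5 as a covariate, with log2 fold changes of -0.69 for Sgk1 (limma adjusted p = 0.239), -0.35 for Tsc22d3 (0.0791) and -0.39 for Errfi1 (0.0572). That fit called 0 of the 16995 genes at 28 dpi against sham, so the loss was not particular to these members. The same covariate kept the falls from 14 to 28 dpi of Tsc22d3 (-0.45, limma adjusted p = 0.000444) and Errfi1 (-0.25, adjusted p = 0.0242), but not that of Sgk1 (-0.60, adjusted p = 0.0967). It also kept the rises from 28 to 42 dpi of Tsc22d3 (0.38, limma adjusted p = 0.0346) and Pdk4 (0.54, adjusted p = 0.0346). The 5 libraries above 400000 were A5-3 and A6-3 at 14 dpi, A3-1 and A3-3 at 28 dpi, and A3-4 at 42 dpi. The 3 animals left at 28 dpi without them are all labelled A4, so ribosomal RNA and label cannot be told apart there. Without these 5 libraries, Tsc22d3 (-0.37, limma adjusted p = 0.0215) and Errfi1 (-0.40, adjusted p = 0.0116) kept their 28 dpi calls and Sgk1 (-0.52, adjusted p = 0.245) did not. From 14 to 28 dpi Tsc22d3 kept its call in that smaller set (-0.43, limma adjusted p = 0.00871), while Errfi1 (-0.25, adjusted p = 0.0953) and Sgk1 (-0.31, adjusted p = 0.526) did not. In the same set 0 members were called from 28 to 42 dpi, with Tsc22d3 at 0.33 (limma adjusted p = 0.129) and Pdk4 at 0.39 (adjusted p = 0.143). Within the groups the correlation of a member with Rn18s-rs5 across the 29 animals lay between -0.23 (Tsc22d3) and 0.32 (Nr3c2).

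The ranges of summed cell type markers at 28 dpi also differed from those in sham animals. The 6 oligodendrocyte markers summed to 4476 to 6587 normalized CPM at 28 dpi and to 6223 to 9261 in sham animals. The 6 neuronal markers summed to 2122 to 2674 against 2390 to 3209, and the 6 astrocyte markers to 2835 to 3301 against 2432 to 2975. At 14 dpi the sums ran from 6271 to 7781 for oligodendrocytes, 2927 to 3240 for neurons and 2355 to 2674 for astrocytes, so that neurons and astrocytes did not overlap between 14 and 28 dpi. At 42 dpi the sums ran from 5185 to 6265 for oligodendrocytes, 2580 to 2875 for neurons and 2827 to 3141 for astrocytes. None of these markers was at 0. Their part in the differences of Sgk1, Tsc22d3 and Errfi1 at 28 dpi, against sham and against 14 dpi, was not tested.

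Animals also differed within groups, and Sgk1 differed most among the members. Its within-group SD on the log2 scale was 0.50, larger than that of 97.9% of the 15495 genes with a mean of at least 1, whose median SD was 0.18. Hif3a, with 0.43, exceeded 96.9% of genes. The other members lay between 0.13 for Errfi1 and Nr3c2 and 0.22 for Fkbp5.

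Part of the spread of Sgk1 followed a number in the animal labels, whose meaning the labels do not give. Each group holds animals of 2 such numbers, and 5 groups have at least 2 animals of each. In 4 of these 5 groups the Sgk1 values of the 2 numbers did not overlap. Sham animals labelled A11 had 71.4 and 119.9, and those labelled A12 had 39.4, 50.3 and 60.7. At 4 dpi A9 animals had 60.5 and 45.1 against 31.9 and 35.0 in A10, and at 7 dpi A7 animals had 54.8 to 90.4 against 43.5 and 49.5 in A8. At 28 dpi A3 animals had 20.4 and 25.0 against 34.8 to 51.5 in A4. A separation in at least 4 of the 5 groups was seen in 0.588% of all genes, 100 of 16995. Errfi1 and Hif3a separated in 2 groups, where 24.3% of genes separated in at least 2, and Fkbp5 and Nr3c1 in 0.

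The number A3 is shared by 2 animals at 28 dpi and 1 at 42 dpi, which allows the last step to be read within it. Sgk1 stood at 20.4 and 25.0 in the A3 animals at 28 dpi and at 70.0 in the one at 42 dpi. Tsc22d3 stood at 100.3 and 95.9 against 136.8, and Pdk4 at 5.5 and 5.7 against 11.3. These 3 genes were picked for their differences between 28 and 42 dpi. Of the other members, Nr3c1, Nr3c2 and Errfi1 were also higher in the 42 dpi animal, whereas Fkbp5 (16.7 against 13.3 and 19.5) and Hif3a (5.3 against 4.3 and 6.9) lay between the 28 dpi animals. All 3 A3 animals are among the 5 libraries high in ribosomal RNA, and no test is possible on a single animal. For every other number, label and time point cannot be told apart.

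**Figure D3:**
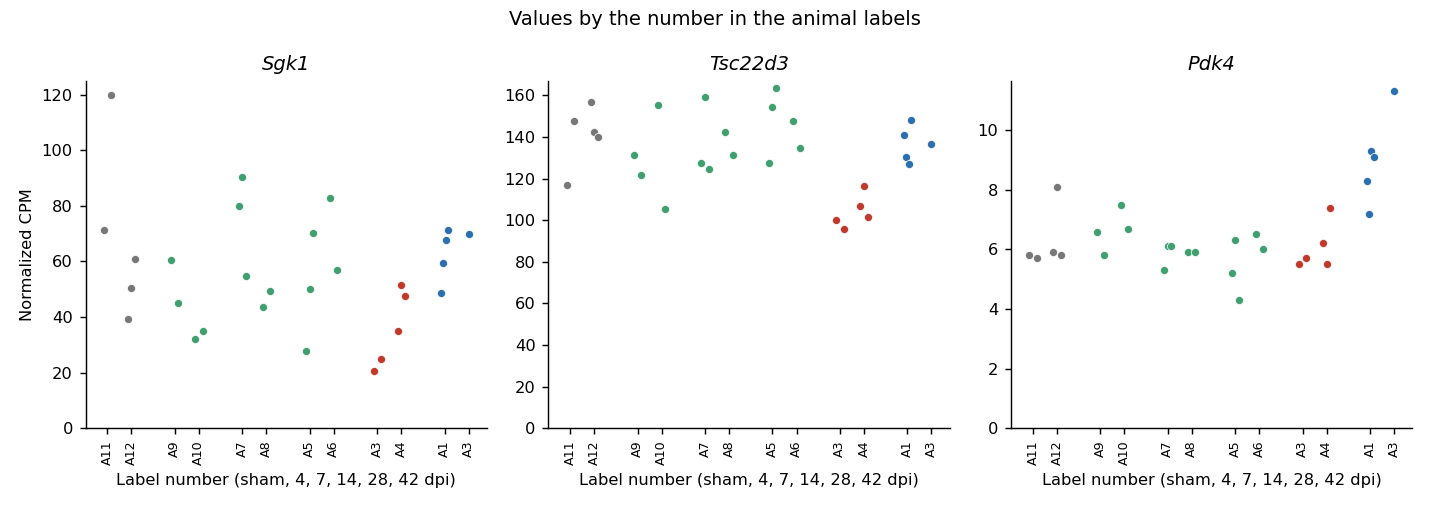
Normalized CPM of Sgk1, Tsc22d3 and Pdk4 (vertical axes, from 0) by the number in the animal labels (horizontal axes), ordered from sham to 42 dpi. Points are animals, grey for sham, green for 4, 7 and 14 dpi, red for 28 dpi and blue for 42 dpi. The Sgk1 points of the 2 numbers of a group are separate in the sham, 4, 7 and 28 dpi groups.

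The members varied together only loosely from animal to animal. With group means removed, the 28 pairs had a median Pearson's r of 0.23 over 29 animals (Spearman's rho 0.24), and 25 of 28 were positive. The animals share library preparation and dissection, and these correlations are descriptions only. The closest pair was Nr3c1 with Nr3c2 (r 0.69), followed by Sgk1 with Errfi1 (0.55) and Fkbp5 with Nr3c2 (0.51). Pdk4 was the least tied, with r -0.07 to Nr3c2, -0.06 to Hif3a and -0.04 to Fkbp5.

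**Figure D4:**
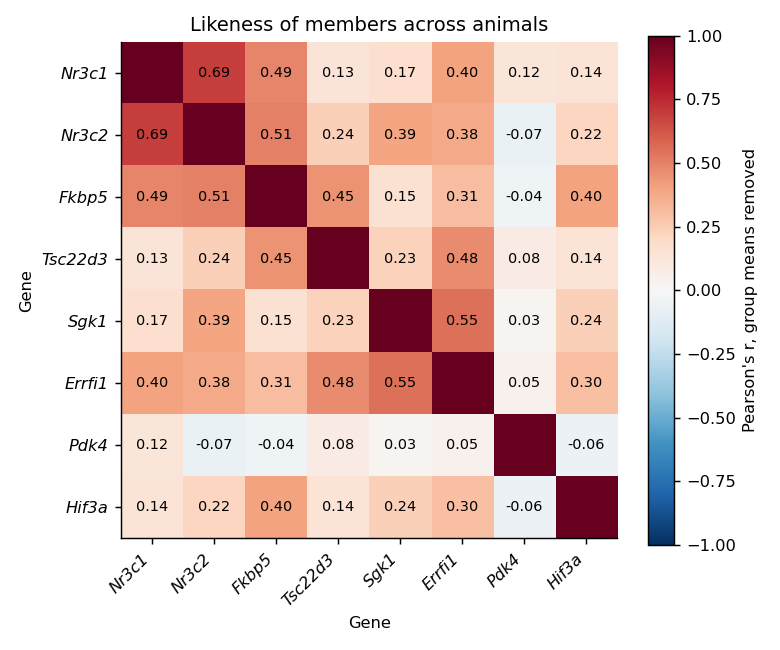
Pearson's r between each pair of the 8 genes (both axes) across 29 animals after group means were removed, from blue (-1) to red (1). The deepest red off the diagonal is the pair Nr3c1 and Nr3c2 at 0.69, and the row of Pdk4 stays close to white.

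Among 15487 other genes with a mean of at least 1, the gene most like Sgk1 in this sense was Plekhf1 (r 0.81), and the gene most like Tsc22d3 was Hddc2 (0.82). Errfi1 was closest to Glul (0.70), Pdk4 to Nid1 (0.66) and Hif3a to Plcl1 (0.74). Fkbp5 was closest to Cdh22 (0.87), Nr3c1 to Qk (0.84) and Nr3c2 to Adamts6 (0.89). For the mean z-score of the 6 responsive members, the 5 most alike genes were Klf15 (0.74), Sorcs3 (0.72), Tns3 (0.71), Zfp365 (0.70) and Sync (0.70). Klf15, a transcription factor known as a glucocorticoid target, is on the list of other responsive genes described next. Against the summed markers of cholinergic motor neurons, which ranged from 25.8 to 287.5 normalized CPM between animals, r was 0.72 for Fkbp5, 0.62 for Tsc22d3 and 0.60 for Nr3c1. It was 0.50 for Nr3c2, 0.36 for Errfi1, 0.17 for Pdk4, 0.09 for Hif3a and 0.05 for Sgk1. No member had an r above 0.60 with the markers of another cell type.

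The rest of the pathway was read from 4 lists. The first held 30 other genes known to respond to glucocorticoids, of which 28 were measured. At 28 dpi 10 of them were lower and 0 higher, where 13% of all genes were lower and 11.9% higher, with a median log2 fold change of -0.24 against -0.00481 for all genes. With the ribosomal covariate, under which 0 of all genes were called, the median was -0.16. The leading genes were Mt2 (-0.75, limma adjusted p = 0.00636) and Mt1 (-0.58, adjusted p = 0.0207), metallothioneins that bind zinc and copper, and Arl4d (-0.56, adjusted p = 0.0471), a small GTPase. The study had already reported metallothioneins I and II as downregulated in these data, and the list was chosen with earlier results known. Mt2 stood at 14.4 ± 4.29 normalized CPM (SD, n = 5) at 28 dpi and 24.6 ± 6.98 (SD, n = 5) in sham animals. Between 14 and 28 dpi 8 fell, led by Mt2 (-0.99), Mt1 (-0.77) and Arl4d (-0.56), and 0 rose, where 21.9% of all genes fell and 21% rose. Between 28 and 42 dpi 1 rose, Mt2 (0.73, limma adjusted p = 0.0423), beside 1.45% of all genes.

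The second list held 22 chaperones and cofactors of the receptor, all measured. At 28 dpi 11 were lower and 3 higher, beside 13% and 11.9% of all genes, with a median of -0.17. With the ribosomal covariate, under which 0 of all genes were called, the median was -0.14. The lower genes included Dnaja1 (-0.40), a heat shock protein partner, and Ppid (-0.39) and Ptges3 (-0.34), co-chaperones of the receptor complex. The higher genes included the histone acetyltransferase genes Crebbp (0.48, limma adjusted p = 0.00387) and Ep300 (0.43, adjusted p = 0.008). Crebbp stood at 100.1 ± 14.4 normalized CPM (SD, n = 5) against 71.4 ± 8.23 (SD, n = 5). In the step from 14 dpi 9 fell, led by Ppid (-0.54), Bag1 (-0.51) and Dnaja1 (-0.48), and 9 rose, including Crebbp (0.70) and Ep300 (0.62), where 21.9% of all genes fell and 21% rose. From 28 to 42 dpi Ppid (0.40), Dnaja1 (0.37) and Bag1 (0.33) rose and 0 fell, where 1.45% of all genes rose and 0.494% fell. With all animals scaled to the same sum, which lowered the median of all genes to -0.73, the list median at 28 dpi was -0.96. On that scale 19 genes of the list were called lower and 0 higher, beside 66% and 0.2% of all genes.

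Of 15 genes of corticosteroid metabolism and access, 10 were measured. At 28 dpi 1 was lower, Hsd11b1 (-0.44, limma adjusted p = 0.0159), whose enzyme regenerates active glucocorticoid inside cells, and 0 were higher, beside 13% and 11.9% of all genes. Hsd11b1 stood at 15.6 ± 1.72 normalized CPM (SD, n = 5) at 28 dpi, 21.4 ± 3.67 (SD, n = 5) in sham animals and 21.8 ± 3.13 (SD, n = 5) at 42 dpi, and the last step missed the threshold (0.47, limma adjusted p = 0.0521). It fell by 0.58 from 14 to 28 dpi, while H6pd (0.43), which supplies its cofactor, and Srd5a3 (0.31) rose, where 21.9% of all genes fell and 21% rose.

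Of 25 paralogs and partners of the members, 24 were measured. At 28 dpi 3 were higher and 1 lower, beside 11.9% and 13% of all genes. Higher were Epas1 (0.50, limma adjusted p = 0.00411), a hypoxia-inducible factor alpha subunit like Hif3a, Nedd4l (0.30, adjusted p = 0.039), the ligase restrained by Sgk1, and Arnt2 (0.21, adjusted p = 0.0124), a partner of the alpha subunits. Lower was Pdha1 (-0.27, adjusted p = 0.00213), the subunit that Pdk4 phosphorylates, and it rose again from 28 to 42 dpi (0.24, adjusted p = 0.029). Between 14 and 28 dpi 9 rose, led by Epas1 (0.48), Nedd4l (0.43) and Arnt (0.37), and 5 fell, led by Tsc22d4 (-0.41), Pdha1 (-0.38) and Ndrg2 (-0.32), beside 21% and 21.9% of all genes.

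Against sham, limma called 0 genes of any of the 4 lists at 4, 7, 14 and 42 dpi. At an unadjusted p under 0.05 the other responsive genes gave 3, 3, 2 and 5, the chaperones and cofactors 0, 0, 4 and 3, corticosteroid metabolism 0, 1, 1 and 0, and the paralogs and partners 1, 1, 1 and 8, beside 5.14%, 5.84%, 11.6% and 14.8% of all genes. Of the responsive genes with the highest mean values, Rhob stood at 105 ± 3.03 normalized CPM (SD, n = 5) at 42 dpi against 131 ± 10.8 (SD, n = 5) in sham animals (log2 fold change -0.32, limma adjusted p = 0.078), and Mt1 at 72.7 ± 9.80 (SD, n = 5) against 82.9 ± 22.8 (SD, n = 5).

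**Figure D5:**
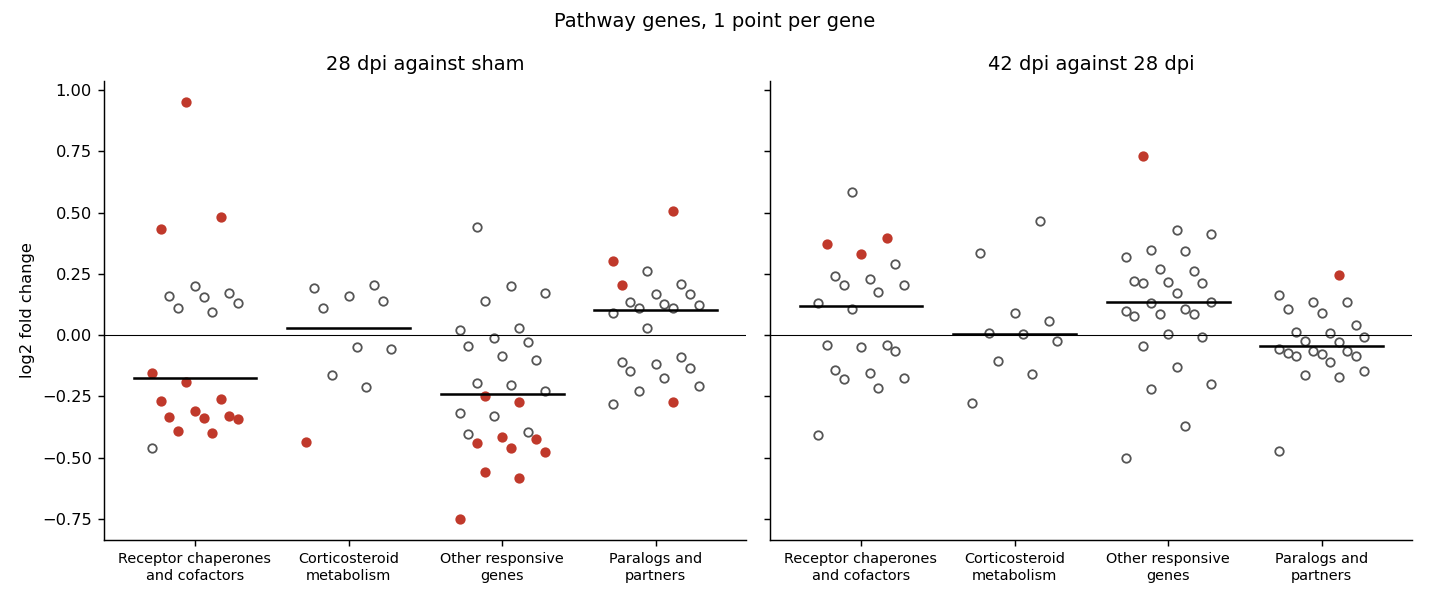
Log2 fold change (vertical axis) of the genes of the 4 lists at 28 dpi against sham (left) and at 42 dpi against 28 dpi (right). Points are genes, red where called (limma adjusted p under 0.05), and the bar is the list median. At 28 dpi the red points of the other responsive genes all lie below 0, and those of the chaperones and cofactors lie on both sides.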

How the data were processed

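The 29 animals were grouped by the sample labels. 1 of the 30 labelled samples, at 4 dpi, was not used because no column was matched to it. The score values are normalized CPM that the authors made and deposited: they mapped reads to mm10 with SALMON, summarised them per gene with Tximport and normalized them with edgeR (3.14.0 in the submitters' processing notes, under R 3.4.1), and low genes were removed by the authors. They are rounded, do not sum to a fixed total and are not counts, so sequencing depth is unknown. The columns of the authors' own fold changes, test statistics and p-values were not used.

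Values were fitted as log2(value + 0.5) in limma 3.58.1 (R 4.3.3), with a trend on the mean value and 1 mean for each of 6 groups, over all 16995 genes, which was tested on simulated data. The table was not filtered further. The members and lists were chosen with earlier results of these data known. The named genes were all members, up to 3 called genes per list, comparison and direction with the largest change (the 2 highest genes where none was called), and the genes most like a member. Values of 1 listed gene are not reported here. Likeness was computed with Python 3.11.15 on log2 values with group means removed. Replicates are separate animals. Other scalings, pseudocounts, filters, covariates and the leaving out of single animals were tried. Promoters came from RefSeq (GRCm38.p6), and gene positions from the deposited table (mm10).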

Additional observations from a re-analysis of the deposited data

Results flagged for a closer look

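2 animals stood apart from their group for Pdk4: A12-2 was the highest sham animal at 8.1 normalized CPM, and A7-2 the lowest at 7 dpi at 5.3. The gaps exceeded Dixon's limit in 2 of 48 groups of values tested, and chance flags about 1 in 20 groups.

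The difference between time points passed its own test in 5 cases. From 14 to 28 dpi the log2 value changed by -0.67 for Sgk1, -0.48 for Tsc22d3 and -0.25 for Errfi1. From 28 to 42 dpi it changed by 0.39 for Tsc22d3 and 0.53 for Pdk4.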

How the results depend on the processing

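No paired analysis was possible because no 2 groups share 2 or more animal labels, and the label number is shared only by 28 and 42 dpi, through A3. With the label number as a random block (correlation -0.0441 over all genes), 1 member, Pdk4, was called at 42 dpi against sham (limma adjusted p = 0.0491). At 28 dpi the animal with the highest Rn18s-rs5, A3-3 (779160), had a sum of values of 2256910. The animal with the lowest, A4-1 (44755), had a sum of 790540, while their median values were 10.5 and 11.2. Scaling all animals to the same sum moved the median of all genes at 28 dpi to -0.73. With it 8 members were called lower and 0 higher, beside 66% and 0.2% of all genes, and the sign of Nr3c2 turned (-0.66). Relative to that median Nr3c2 stood at 0.06, Sgk1 at -0.95, Tsc22d3 at -0.49 and Errfi1 at -0.46. On that scale 1 member was called from 14 to 28 dpi, beside 3.74% of all genes lower and 0.477% higher. From 28 to 42 dpi 0 members were called on it, beside 0.0235% lower and 0.0353% higher. In any group 8 members were called, for which the share of all genes was not kept. With the ribosomal covariate 0 members, and 0 of all genes, were called at 28 dpi, so that 0 genes were called lower in the chaperone list and 0 among the other responsive genes. Quantile normalization left 1 member called from 14 to 28 dpi. From 28 to 42 dpi, 1 was called without the trend and 0 with only the compared groups fitted. The shares of all genes called were not kept for these settings. Without the 5 libraries high in ribosomal RNA, chosen after seeing the data, 1 member was called from 14 to 28 dpi. In that step 17.9% of all genes were called lower and 15.8% higher. From 28 to 42 dpi 0 members were called in this set, beside 0.0883% of all genes lower and 0.341% higher. In any group 2 members were called, without a share of all genes. For genes called lower at 28 dpi (11 chaperones and cofactors and 10 other responsive genes), alternatives also added after seeing the data gave 19 and 25 with the same sum, 4 and 6 with only the compared groups, and 6 of the responsive genes after median centring and 5 without the 5 libraries. The same sum called 66% of all genes lower there, and the set without the 5 libraries 9.47%. For the other settings and the fits with 1 animal left out the shares of all genes were not kept. With 1 animal left out the counts ranged from 2 to 3 at 28 dpi, 1 to 3 from 14 to 28 dpi, 0 to 2 from 28 to 42 dpi, 3 to 4 in any group, 7 to 12 and 5 to 11 in those 2 lists, and 0 to 0 in the other comparisons. The calls from 28 to 42 dpi were both lost without A3-3 or A4-3 at 28 dpi or A1-1, A1-2 or A1-4 at 42 dpi, with Tsc22d3 lost also without A4-4 and Pdk4 also without A3-4. Over all members, comparisons and alternatives, 58 values lost a call, 5 gained one in the same direction, 1 (Nr3c2 with the same sum) gained one with its sign turned, 30 moved by more than 1 SD and 2786 did none of these. Depth is unknown, and with 4 or 5 animals in a group the intervals of Hif3a and Sgk1 stay wide.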
